A study of Cavia porcellus with 30 samples.

Results

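Renal proximal tubular epithelial cells of Hartley guinea pigs (Cavia porcellus) were compared after 12 h in 40 µM mercuric chloride or in vehicle. The comparison took, by the agent and time in the labels, 5 treated and 5 vehicle RNA-seq libraries of the 30 in the series, which fell into 6 groups and also held a 30 µM dose and a 24 h time. The cells came from animals aged 6 to 8 weeks, male per the study's methods. Per those methods the tubules were grown to a monolayer and replated, and the cells spent the last 48 h before exposure in Hepatocyte Maintenance Medium. The labels name this medium as the vehicle. The labels describe the cells as epithelial cells of the renal tubule, and the proximal segment comes from the study's methods. How many animals gave the cells, and whether the libraries of a group came from separate cultures, is not given in the sources used here. P-values therefore measure the spread between these libraries, which may be technical.

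The proximal tubule is the first segment of the nephron and recovers most of the filtered solutes and protein. It is also the main site at which the kidney takes up and accumulates inorganic mercury. Mercuric ions bind sulfhydryl groups with high affinity, so thiol-rich molecules such as glutathione and metallothioneins are their main ligands in cells. Known responses of cells to such metals include the synthesis of metallothioneins, heat shock proteins and enzymes of the antioxidant defence. The files name 25824 transcripts by Ensembl identifier and do not pair these with gene names, and 0 of the identifiers matched the gene table at hand. Members of those families could therefore not be looked up, nor could the cell type be checked against its marker transcripts. The response is described by size, level, length and detection, with 2 rising and 2 falling transcripts given by identifier.

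Library totals lay between 22359147 and 34237468 estimated counts in vehicle and between 23464210 and 27114730 at 40 µM. Counts were estimated by the authors per transcript, rounded here, and scaled to a common library total (CPM) with TMM factors over all 30 libraries. The edgeR fit of the 10 libraries compared had its own TMM factors, between 0.987 and 1.01. Replicates correlated with Pearson r from 0.979 to 0.984 in vehicle and from 0.973 to 0.981 at 40 µM across transcripts, which are not independent replicates, and pairs of the 2 groups with r from 0.950 to 0.966. On the first principal component (43.7% of the variance) vehicle libraries lay between -34.2 and -32.1. The treated libraries were further apart, at 25.3, 39.4, 29.9, 43.3 and 27.3 for replicates 1 to 5. Replicate 5 at 40 µM also stood alone on the second component (10.5%), at 38.2 against -20.5 to 12.3 in the other 9 libraries. The SD of log2 CPM was wider at 40 µM than in vehicle in 64.9% of tested transcripts.

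At 12 h, 40 µM mercuric chloride altered the levels of 8550 of 16767 tested transcripts (51%). A call was an adjusted p (Benjamini-Hochberg, edgeR quasi-likelihood test) below the study's limit of 0.1. Of these 4169 were higher (24.9% of those tested) and 4381 lower (26.1%). All 5 treated libraries lay above all 5 vehicle libraries in 2687 transcripts (16% of those tested) and below them in 2915 (17.4%). Among the called transcripts, the groups did not overlap in 2669 of those called higher and 2903 of those called lower.

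The response consisted of many small changes in both directions and, over all tested transcripts, of more large rises than large falls. The smallest class, under 0.32 log2 units, held 1701 of the called rises (40.8%, 95% Wilson interval 39.3 to 42.3) and 1591 of the called falls (36.3%, 34.9 to 37.8). In the next classes, from 0.32 to 0.58 log2 units (1.5-fold) and from there to 2-fold, the falls were the more numerous, with 1437 and 938 against 1212 and 618 rises. At 2-fold and above the order turned, with 638 rises (15.3% of rises, 14.2 to 16.4) and 415 falls (9.47%, 8.64 to 10.4). From 4-fold to 8-fold there were 115 rises and 32 falls, and at 8-fold or more 72 rises and 7 falls. Of those 7 falls 85.7% had fractional estimates, which mark reads shared with another transcript, against 43.1% of the 72 rises. The size of the surplus of large rises depended on which transcripts entered the test. A filter on vehicle takes out transcripts low in vehicle, so by construction it removes more rises than falls. Among the 15303 transcripts that reached 0.404 CPM, the filter's level, in all 5 vehicle libraries at 24 h, 408 called rises and 385 called falls were at least 2-fold, with 347 and 351 from 2-fold to 4-fold, 46 and 30 from 4-fold to 8-fold and 15 and 4 at 8-fold or more. The intervals cover counting error only.

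**Figure D1:**
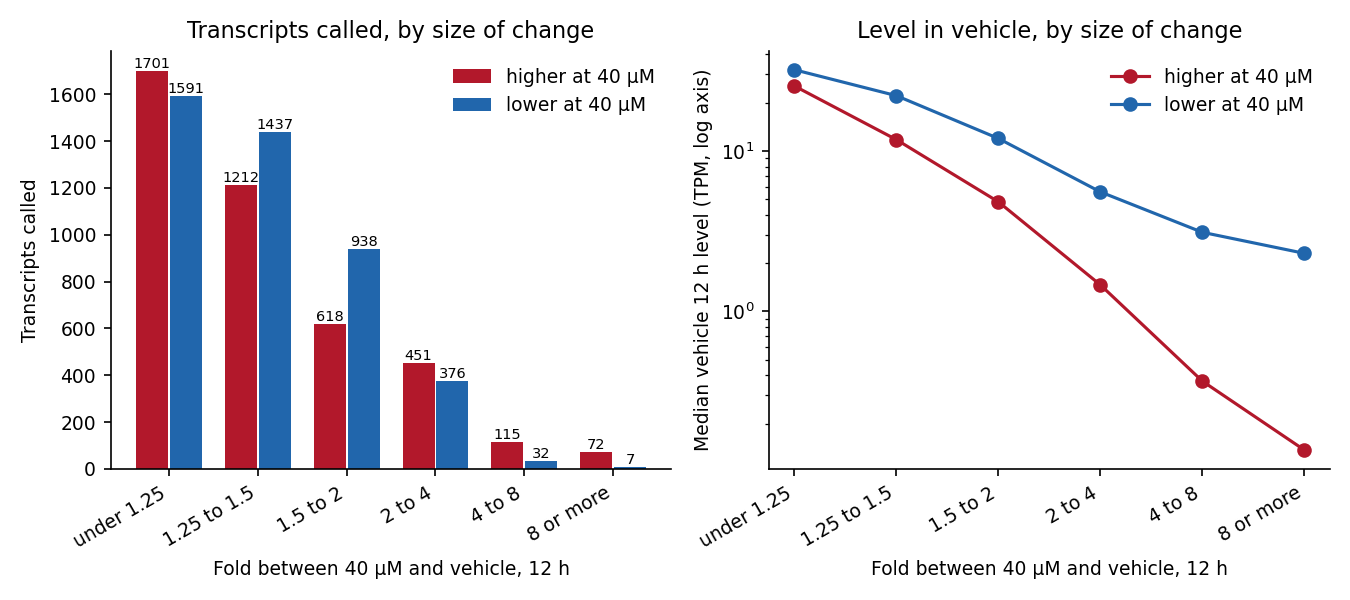
Called transcripts by the fold between 40 µM mercuric chloride and vehicle at 12 h (left, number of transcripts) and the median vehicle level of each class (right, TPM on a log axis), red for higher and blue for lower at 40 µM. Over all tested transcripts rises outnumbered falls in every class from 2-fold upward, and the median vehicle level went down from 25.4 to 0.137 TPM over the classes of rises and from 32.1 to 2.30 TPM over those of falls. With the filter on vehicle at 24 h the largest rises had a median of 8.34 TPM instead, and the 2 to 4-fold class held 347 rises and 351 falls.

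A test against a minimum change was also run. With edgeR's glmTreat test, 621 transcripts were higher by more than 1.5-fold (3.7% of those tested) and 538 lower (3.21%). Beyond 2-fold there were 351, of which 99 were lower (0.59%) and the others higher (1.5%). The order at 1.5-fold depended on the filter. With filter and quintiles from vehicle at 24 h, the quintiles held 182, 88, 66, 50 and 94 higher transcripts beyond 1.5-fold, from lowest to highest level. They held 93, 105, 108, 90 and 137 lower ones, so that in sum the lower ones were more numerous. With limma on log2(TPM + 1), which changes the test, the unit and the normalisation together, 281 were higher and 309 lower beyond 1.5-fold, and with log2(TPM + 0.1) 424 and 429, so that the order turned. Beyond 2-fold these fits gave 109 higher and 42 lower, and 163 and 69. Fold changes of these fits are on the log2(TPM + pseudocount) scale, on which those of low transcripts are smaller by construction, and the cause of the changed counts was not tested.

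By estimated fold, called falls of larger size had lower median vehicle levels, while for rises the same order depended on which transcripts entered the test. Levels between transcripts were compared in TPM, which is corrected for length. Over all tested transcripts the median vehicle level of rises was 25.4 TPM in the smallest class, 11.8 TPM in the next, 4.82 TPM from 1.5 to 2-fold, 1.46 TPM from 2 to 4-fold, 0.369 TPM from 4 to 8-fold and 0.137 TPM at 8-fold or more. Many of the largest rises passed the filter through the treated libraries only, which sets them low in vehicle. Among the transcripts that passed it in vehicle at 24 h, the medians of rises were 25.4, 11.8, 5.38, 2.37, 5.62 and 8.34 TPM in the same order, so that they fell only as far as the 2 to 4-fold class. For falls the median over all tested went from 32.1 TPM in the smallest class to 5.56 TPM from 2 to 4-fold and 2.30 TPM at 8-fold or more, and to 6.12 and 3.16 TPM with the filter on vehicle at 24 h. Falls beyond 2-fold by glmTreat had a median of 11.5 TPM, close to the 11.0 TPM of all tested transcripts. In the vehicle libraries of 24 h, which took no part in the contrast, the medians of the smallest and largest classes were 23.8 and 0.155 TPM for rises and 30.5 and 2.33 TPM for falls. The SE of the log2 fold change moved with level, from a median of 0.35 in the lowest quintile of vehicle TPM to 0.05 in the highest, and called log2 fold changes had a median size of 1.05 in the lowest and 0.31 in the highest. Its part in the order of the medians was not tested.

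Across quintiles of vehicle 12 h level the calls turned from mostly higher to mostly lower. In the lowest quintile (up to 2.13 TPM) 21.3% of transcripts were called higher (95% Wilson interval 19.9 to 22.7) and 8.83% lower (7.91 to 9.83). In the highest quintile (above 39.7 TPM) 27.6% were called higher (26.1 to 29.2) and 42.5% lower (40.8 to 44.1). The share called lower went up at every step, over 20.5%, 26.0% and 32.9% in between, whereas the share called higher lay between 21.7% and 27.3%. Of the calls in a quintile, 70.7% were higher in the lowest and 39.4% in the highest.

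The lowest quintile holds transcripts that entered the test through the treated libraries and others that entered through vehicle. Of its 3354 transcripts, 2112 passed the filter's level in all 5 vehicle libraries, 347 of them without passing it in all 5 treated ones. Another 485 passed it in all 5 treated libraries only, and 757 in neither full group. Over all tested transcripts 552 passed it in all 5 treated libraries only and 491 in all 5 vehicle libraries only. With filter and quintiles both taken from vehicle at 24 h, 15303 transcripts remained and 60.2% of calls were higher in the lowest quintile against 39.3% in the highest. The shares called lower were then 14.3% and 42.8%, so that the order held and the step at the low end was smaller. Quintiles from vehicle 24 h without the change of filter gave 70.7% and 39.4%.

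**Figure D2:**
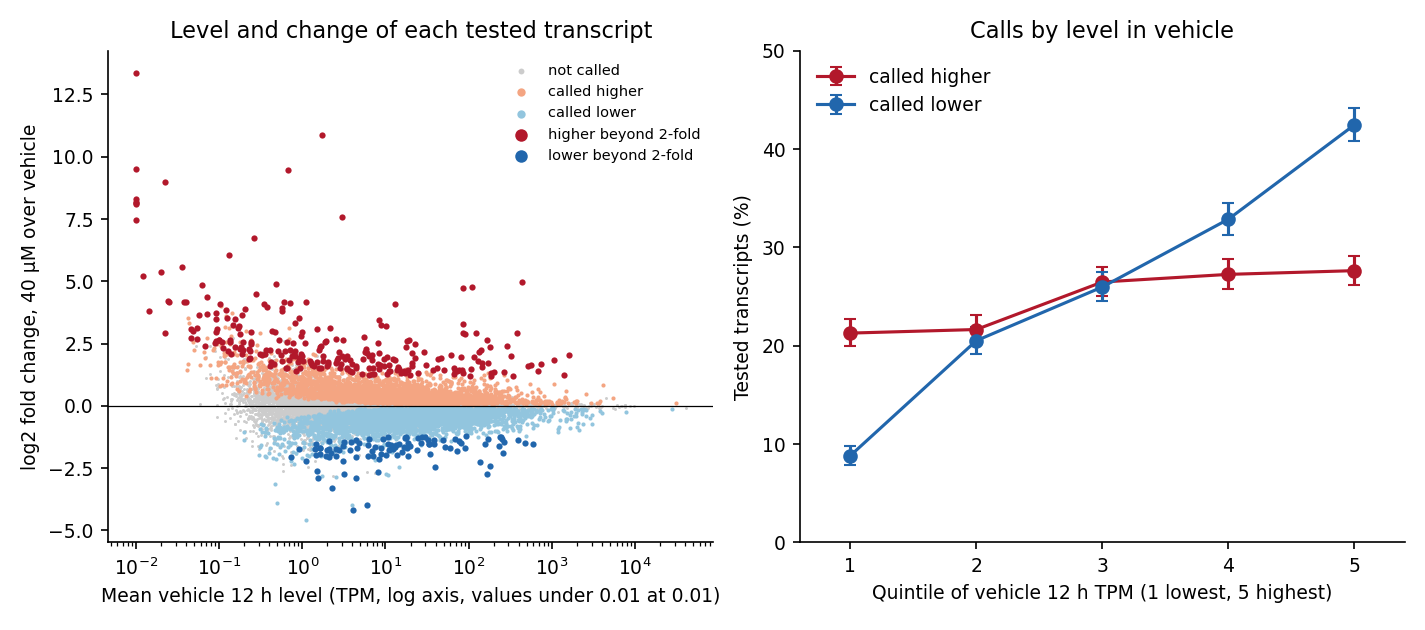
Left, log2 fold change of each of the 16767 tested transcripts against its mean vehicle 12 h level (TPM, log axis). Right, share of tested transcripts called higher (red) or lower (blue) in each quintile of vehicle 12 h TPM, with 95% Wilson intervals. The share called lower climbed from 8.83% to 42.5%, while the share called higher stayed between 21.3% and 27.6%.

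Large rises were found at both ends of the vehicle level, and large falls in similar numbers at all levels. Beyond 2-fold, the quintiles of vehicle level held 132, 33, 26, 15 and 46 higher transcripts from lowest to highest. They held 16, 22, 18, 20 and 23 lower ones. Of the higher transcripts, 165 passed the filter's count level in all 5 vehicle libraries and 87 in the treated libraries only, whereas all 99 lower ones passed it in vehicle, where they were high by definition. With filter and quintiles from vehicle at 24 h the quintiles held 59, 27, 23, 13 and 43 higher transcripts beyond 2-fold. The lowest and highest of these, 1.93% and 1.40% (95% Wilson interval 1.04 to 1.89) of their quintiles, had overlapping Wilson intervals. The lower transcripts then numbered 22, 20, 18, 15 and 24. The 46 strong rises of the highest quintile began above 39.7 TPM and so combined a high starting level with a large fold.

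Summed over the called transcripts, gains and losses were each shared by many. The rises added 94341 CPM to the mean of the treated libraries and the falls changed it by -101727 CPM. Of the gain, 93 transcripts held 50%, and of the loss 135 did. The 10 largest accounted for 21.1% of the gain and 16.2% of the loss. The transcripts called higher took 23.4% to 24.0% of counts in the vehicle libraries and 31.9%, 34.6%, 33.1%, 35.1% and 33.3% in treated replicates 1 to 5. Those at least 2-fold higher went from 1.57% to 1.64% of counts in vehicle to between 5.12% and 6.00%. Those at least 2-fold lower went from between 1.93% and 2.04% to between 0.718% and 0.979%. These shares describe transcripts chosen on the same libraries and carry no test.

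When each treated library was left out of the choice of transcripts and then read, it moved the same way. Transcripts called higher in the other libraries had a median log2 change of 0.29, 0.40, 0.34, 0.43 and 0.32 in the treated replicate left out (1 to 5), and from 90.7% to 98.1% of them lay on the same side of vehicle. For those at least 2-fold higher the median was 1.04 to 1.38. The replicates with the largest held-out changes, 2 and 4, were also those farthest from vehicle on the first principal component. Vehicle libraries were shared between choice and reading, which by itself favours the same side.

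The share called higher varied with transcript length, and the share called lower varied less with length than with level. Called-higher transcripts had a median length of 2829 bases, called-lower ones 2617 and uncalled ones 2438, against 2596 over all tested. In the quintile of shortest transcripts (up to 1307 bases) 19.7% were called higher (95% Wilson interval 18.4 to 21.1) and 24.5% lower (23.1 to 26.0). In the quintile of longest ones (above 4645 bases) 27.3% were called higher (25.8 to 28.9) and 25.6% lower (24.1 to 27.1). The higher share of calls thus went from 44.5% to 51.7%. The median count per library rose over the same quintiles from 217 to 675, and the median SE of the log2 fold change went from 0.12 to 0.09. Their part in the calls was not tested. Beyond 2-fold no such order with length was seen. The quintiles held 53, 52, 50, 49 and 48 higher and 16, 17, 25, 21 and 20 lower transcripts, from shortest to longest.

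Among tested transcripts, abundant ones were shorter, with a median of 1768 bases in the highest quintile of vehicle TPM and 3088 in the lowest. The filter was on counts, not corrected for length, so short transcripts of low TPM were less likely to pass it. Length was therefore also compared within quintiles of level (taken from vehicle at 24 h). In all 5 of them both called classes had a longer median than the uncalled transcripts. In the highest the medians were 1848 bases for called-higher, 1958 for called-lower and 1414 for uncalled transcripts. There, 55.3% of the longest transcripts and 36.6% of the shortest were called lower, while 24.1% and 24.8% were called higher. In the other 4 quintiles, from the lowest level up, 24.0%, 26.2%, 30.3% and 31.9% of the longest transcripts were called higher against 16.8%, 11.9%, 16.6% and 21.0% of the shortest. The shares called lower were also larger among the longest, at 8.35%, 25.0%, 26.3% and 36.6% against 4.08%, 15.6%, 18.7% and 26.4%.

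Summed over whole libraries, shorter transcripts took a larger share of counts at 40 µM, whereas the number of rises was larger among longer ones. For these sums transcripts were classed by length and by vehicle 24 h level among those with a count there, and the 10 class shares were set against each other by exact permutation (two-sided), an alternative added after the data had been seen. The second length quintile (1150 to 1885 bases) went from 14.1% ± 0.356 (SD, n = 5) to 15.2% ± 0.430 of counts (exact permutation p = 0.00794, the smallest that 5 against 5 libraries can give, adjusted p = 0.0265). Each treated library lay above each vehicle library. The longest quintile went from 31.7% ± 1.03 to 30.0% ± 1.04 and the shortest from 10.7% ± 0.336 to 11.3% ± 0.373, each with exact permutation p = 0.0317 and adjusted p = 0.0635. Both missed an unadjusted p of 0.05 in 6 of 10 cases with 1 library left out, and treated replicate 1 lay within the vehicle range in each. A single transcript described below carried 0.353 of the 1.13 percentage points gained by the second quintile. Without the 4 transcripts given by identifier that gain was 0.775 points (exact permutation p = 0.0238, not adjusted), and the shortest quintile gave p = 0.0794. The count-weighted mean length was 3706 ± 66.2 bases in vehicle and 3610 ± 69.6 at 40 µM (exact permutation p = 0.0476, adjusted over 8 measures 0.0952), and the mean fragment length estimated from long transcripts was 203 ± 8.72 and 206 ± 4.34 bases (p = 0.468).

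**Figure D3:**
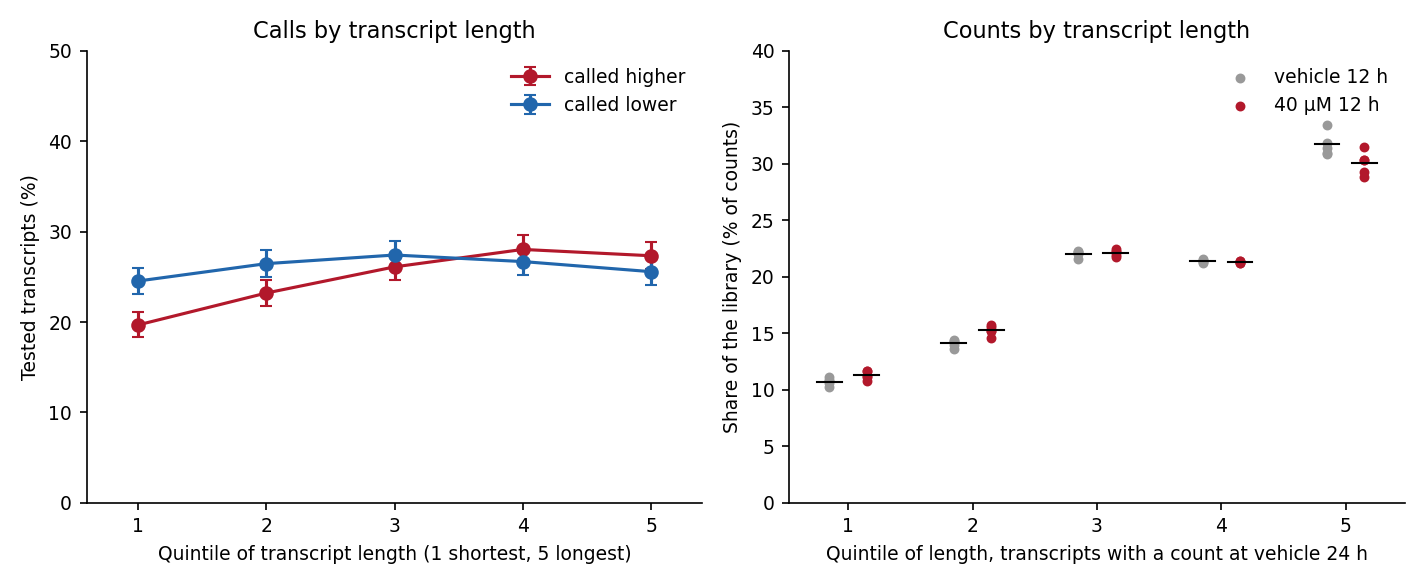
Left, share of tested transcripts called higher (red) or lower (blue) by quintile of annotated length, with 95% Wilson intervals. Right, share of each library's counts held by length quintiles of the transcripts with a count in vehicle at 24 h, 1 point a library (grey vehicle, red 40 µM, black line the mean). The share called higher went from 19.7% to 27.3% with length, while the summed counts of the longest quintile went from 31.7% to 30.0%.

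By level, the rarest transcripts took a larger share of treated libraries. Those in the lowest quintile of vehicle 24 h level (up to 0.275 TPM) went from 0.0472% ± 0.00364 (SD, n = 5) of the TPM of a library to 0.0766% ± 0.0141 (exact permutation p = 0.00794, adjusted p = 0.0265). The second quintile (0.276 to 2.55 TPM) went from 0.509% ± 0.0202 to 0.988% ± 0.0834 with the same p-values. In both, all 5 treated libraries lay above the vehicle libraries. Of the 0.479 points gained by the second quintile 0.316 came from a single transcript, and without it the ratio of the groups was 1.32 in place of 1.94 (exact permutation p = 0.00794). The upper 3 quintiles differed by 0.0246, -0.132 and -0.420 points in order of level (exact permutation p = 0.738, 0.357 and 0.111). The last value depended on single transcripts and libraries. It was -0.817 points without the 4 transcripts given by identifier (exact permutation p = 0.0159, not adjusted) and -0.579 without treated replicate 5 (p = 0.0317).

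More transcripts gave a count at all in treated cells. At an equal depth of 22359123 counts, 18924 ± 145 transcripts (SD, n = 5) were detected in vehicle and 19427 ± 222 at 40 µM, a difference of 503 (two-sided exact permutation p = 0.0159, adjusted over 8 measures 0.0423). The vehicle libraries had 19121, 18883, 18764, 18830 and 19022 and the treated ones 19443, 19424, 19413, 19741 and 19113. Replicate 5 at 40 µM lay within the vehicle range and the other 4 above it.

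The groups were fully apart among transcripts with no count in other vehicle cells. Of the 4500 transcripts with no count in any vehicle library at 24 h, the 12 h vehicle libraries had counts for 224, 222, 173, 177 and 198. The treated libraries had counts for 422, 470, 438, 554 and 348. The means were 199 ± 24.1 and 446 ± 75.0 (exact permutation p = 0.00794, adjusted p = 0.0317), and all 5 treated libraries lay above all 5 vehicle libraries. The vehicle counts come from untreated cells at 12 h and are the level against which the treated ones were compared. The share of counts from transcripts with fractional estimates also rose, from 48.8% ± 0.278 to 50.4% ± 0.266 (exact permutation p = 0.00794, adjusted p = 0.0317), and its part in detection was not tested.

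**Figure D4:**
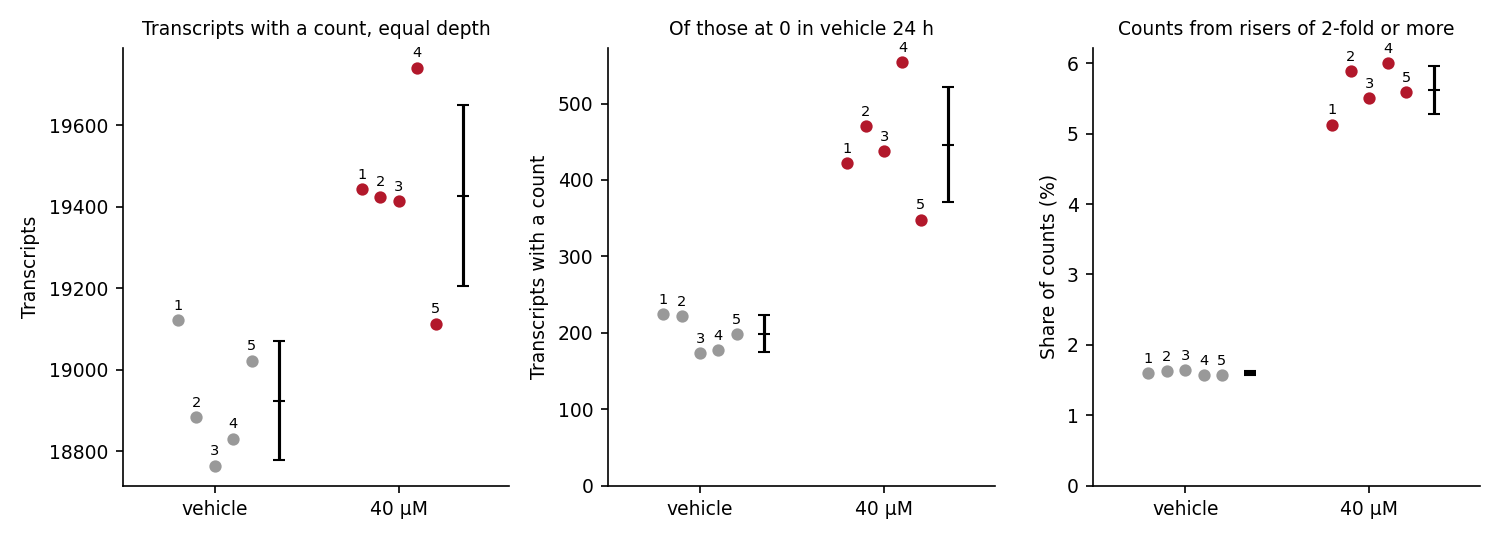
Each 12 h library by group (grey vehicle, red 40 µM, numbered by replicate, bars mean and SD, n = 5). Left, transcripts with a count at equal depth (axis not from 0), centre, the same among the 4500 transcripts at 0 in vehicle 24 h, right, share of counts from transcripts called at least 2-fold higher. In the centre panel vehicle libraries reached 224 at most and treated ones at least 348.

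A strict switch was rare and ran in one direction at these limits. Transcripts were taken as silent with at most 3 counts in each library of a group and as detected with at least 10 in each. Of 6229 transcripts silent in vehicle, 16 were detected in all 5 treated libraries. Of 5704 silent in treated cells, 0 had been detected in all 5 vehicle libraries. With at least 5 counts in place of 10 the numbers were 40 and 4, and with 1 library left out from 18 to 21 and from 0 to 2. Incomplete switches showed the same asymmetry: transcripts silent in vehicle were detected in 1, 2, 3, 4 and 5 treated libraries in 256, 60, 34, 16 and 16 cases, and those silent in treated cells in as many vehicle libraries in 143, 39, 9, 2 and 0 cases.

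The 16 switched-on transcripts were mostly rare after the switch too. Their mean level at 40 µM ran from 0.257 to 111 TPM with a median of 1.11, and 8 of them stayed under 1 TPM and 3 exceeded 10 TPM. They were 384 to 8139 bases long, with a median of 2047. Whole estimates, with no sign of shared reads, were found for 9 of them. In vehicle 6 had 0 counts in all 5 libraries, and against 3 counts per vehicle library their treated CPM were at least 11.5-fold to at least 443-fold higher. Because they were chosen for this contrast, no test is given for it.

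The most abundant of the 16, a transcript of 889 bases with fractional estimates, showed no read in any of the 10 vehicle libraries of both times and from 700 to 1613 counts (median 1298) in the treated libraries. It was as high at 30 µM, with 1023 to 1598 counts. A transcript of 384 bases with whole estimates had at most 3 counts in vehicle, 13 to 20 at 30 µM and 67 to 186 (median 81) at 40 µM. Another, of 1832 bases and also with whole estimates, had at most 2 counts in vehicle, 58 to 76 at 30 µM and a median of 314 with a highest of 461 at 40 µM. The transcript of 889 bases thus had overlapping counts at both doses, while the counts of the other two at 40 µM lay above all those at 30 µM.

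Libraries that took no part in the choice showed how far the silence and the switch held. In vehicle at 24 h 8 of the 16 were again silent in all 5 libraries, and 3 had no count in any of the 10 vehicle libraries. The least silent of them reached 75 counts in 1 vehicle library at 24 h. At 30 µM and 12 h, 4 were detected in all 5 libraries and 1 was silent. At 40 µM and 24 h, 4 were detected in all 5 libraries and 1 was silent. Between the doses at 12 h, 12 of the 16 were called higher at 40 µM than at 30 µM (edgeR, adjusted over all transcripts), a contrast that shares the 40 µM libraries with the choice and in which 33.5% of all tested transcripts were called. Treated replicate 4 gave the highest count in 8 of the 16 and replicate 2 in 4.

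The changes were set beside those of the other time and dose. Transcripts at least 2-fold higher at 12 h had a median log2 fold change of 0.54 against vehicle at 24 h, over the 523 of 638 that were tested there, and those at least 2-fold lower one of -0.53 (409 of 415). Over all called transcripts the 24 h medians were 0.11 and -0.12. The effect differed between the times in 5261 of 17512 transcripts (30%, edgeR interaction test). Among those at least 2-fold higher at 12 h it moved toward 0 by 24 h in 380 of 638 and away from it in 5. Among those at least 2-fold lower the numbers were 260 of 415 and 3. The transcripts were chosen on the 12 h libraries, which also enter the interaction, so these counts are a description.

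The 30 µM dose used the same vehicle libraries, so its values are given side by side only. Median log2 fold changes at 30 µM were 0.77 and -0.59 for transcripts at least 2-fold higher or lower at 40 µM, over the 536 of 638 and 415 of 415 tested there. The doses themselves differed at 12 h in 5587 of 16684 transcripts (33.5%). Of the transcripts at least 2-fold higher at 40 µM, 451 of 633 were called further from vehicle at 40 than at 30 µM and 11 less far. Of those at least 2-fold lower, 250 of 385 were called further and 0 less far. These transcripts were chosen on the 40 µM libraries, which also enter this contrast. The choice favours calls further from vehicle, so these counts are a description.

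ENSCPOT00000044307.1, a transcript of 678 bases with whole estimates, had the largest rise in fold among 2526 transcripts that met the conditions for being described by identifier. These conditions required that the vehicle and 40 µM groups at 12 h did not overlap, so their separation is no result for any of the 4. It had 12, 32, 10, 12 and 5 counts in vehicle libraries 1 to 5 and 21692, 28108, 23936, 23998 and 26826 in the treated ones. Vehicle replicate 2 was the highest of its group. In normalised counts it went from 0.530 ± 0.384 to 989 ± 91.4 CPM (SD, n = 5), a log2 fold change of 10.86 (SE 0.20, edgeR adjusted p = 4.14e-11). At 40 µM it alone made up 1.05% of the summed gain. Its log2 fold change at 24 h was 8.69, lower than at 12 h by -2.19 (SE 0.54, edgeR interaction adjusted p = 0.00538).

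ENSCPOT00000025069.2 (1261 bases) had the largest gain in CPM among the same transcripts. Vehicle libraries held 1042, 1100, 1134, 1085 and 1071 CPM and treated libraries 4337, 4493, 4536, 4034 and 5314 CPM. The treated values spread more widely, with the highest in replicate 5. The rise from 1087 ± 34.3 to 4543 ± 474 CPM was 4.18-fold (log2 fold change 2.06, SE 0.06, edgeR adjusted p = 1.21e-09) and made up 3.66% of the summed gain, although 85 tested transcripts had a higher vehicle TPM. At 30 µM it stood at 4042 ± 164 CPM, and the doses differed by 0.19 log2 units (SE 0.06, edgeR adjusted p = 0.0471).

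ENSCPOT00000013715.3 (1494 bases) had the largest fall in fold among the same 2526 transcripts, which excludes those with fractional estimates or a mean under 50 counts. It stood at 4.29, 2.85, 2.97, 4.27 and 3.80 CPM in vehicle and at 0.509, 0.506, 0.536, 0.576 and 0.288 CPM at 40 µM, the last from 7 counts. Treated replicate 5 was the lowest. The fall from 3.64 ± 0.692 to 0.483 ± 0.113 CPM was 7.46-fold (log2 fold change -2.90, SE 0.24, edgeR adjusted p = 3.48e-06). The 7 called falls of 8-fold or more lay outside those conditions.

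ENSCPOT00000006905.3 (4389 bases) had the largest loss in CPM among the same transcripts. Vehicle libraries held 4953, 5050, 5179, 5363 and 6140 CPM and treated libraries 3236, 2906, 2965, 2748 and 3018 CPM. Vehicle replicate 5 was the highest. The fall from 5337 ± 474 to 2974 ± 178 CPM was 1.80-fold (log2 fold change -0.84, SE 0.06, edgeR adjusted p = 1.16e-06) and made up 2.32% of the summed loss. At 30 µM it stood at 4393 ± 191 CPM, higher than at 40 µM (difference of 40 from 30 µM -0.54 log2 units, SE 0.05, edgeR adjusted p = 3.26e-05).

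**Figure D5:**
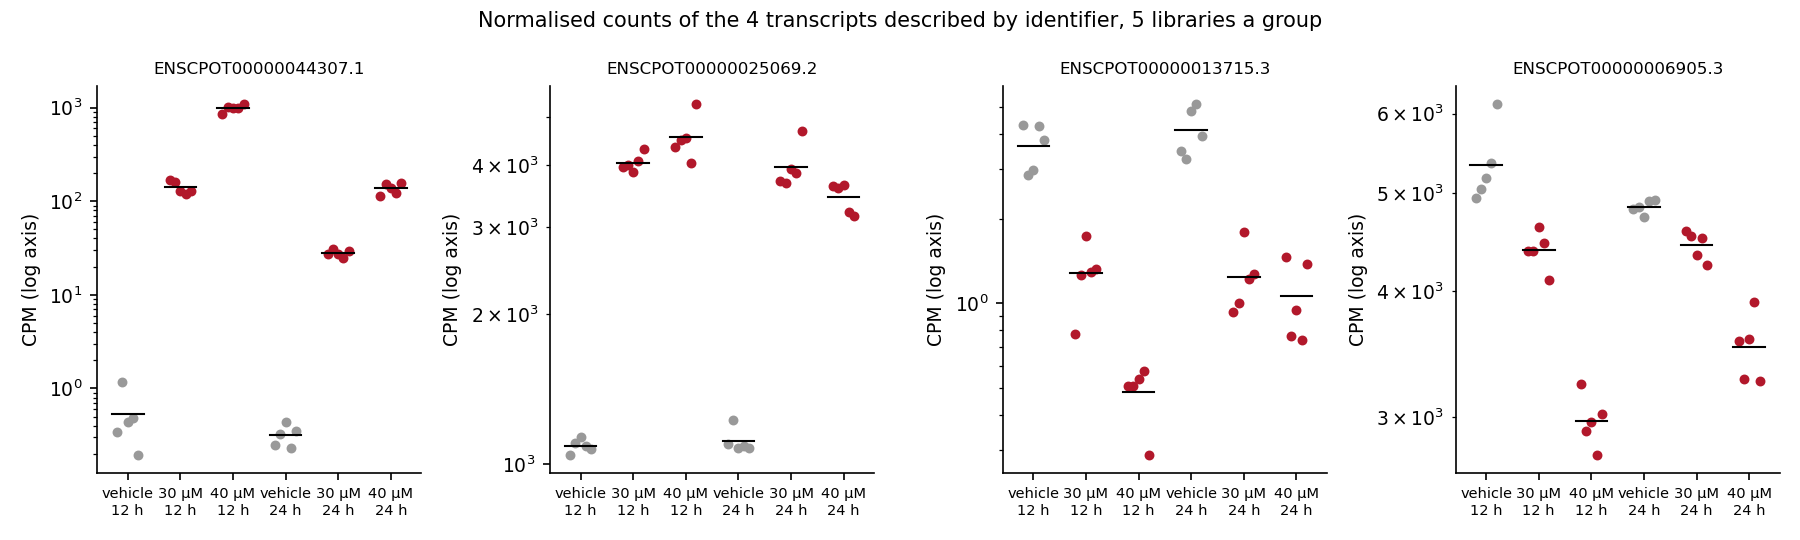
Normalised counts (CPM, log axis, scales differ between panels) of the 4 transcripts given by identifier, 5 libraries a group, grey for vehicle and red for mercuric chloride, black lines the mean. At 12 h every 40 µM library lay beyond every vehicle library in each panel, which the choice of these transcripts required. The mean at 40 µM and 24 h lay closer to vehicle than at 12 h, which that choice also favours.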

How the data were processed

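The authors quantified poly-A-enriched stranded libraries with kallisto 0.42.4 (per the submitters' processing notes) on the Ensembl guinea pig transcriptome, whose release is not given in the sources used here. The deposited files hold an estimated count and a TPM value per transcript, with the length and effective length. Estimated counts need not be whole, since reads that fit several transcripts are divided among them, and 60.4% of tested transcripts had a fractional estimate in at least 1 of the 10 libraries. Of all 25824 annotated transcripts 62.4% had a length divisible by 3, so many models may hold only coding sequence. Here counts were rounded to whole numbers.

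Contrasts were tested with edgeR 4.0.16 in R 4.3.3 (TMM factors, filterByExpr, glmQLFit and glmQLFTest, and glmTreat against 1.5-fold and 2-fold) on the libraries compared, with Benjamini-Hochberg adjustment over all tested transcripts and calls at an adjusted p under 0.1. The change with time was an interaction over 20 libraries. The SE is the log2 fold change divided by the root of F. Library measures were compared by two-sided exact permutation tests. Quintiles of level were over tested transcripts. Detection was counted after thinning to 22359123 counts. Scripts were tested on simulated counts.

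Transcripts given by identifier were the largest called rise and fall in fold and the largest gain and loss in CPM among transcripts with whole estimates, a mean of at least 50 counts and groups that did not overlap. Classes, lists and rules were chosen with earlier results of these data known. Lists of genes and cell type markers were planned and not run, as no identifier matched a name. The smallest chi-square per degree of freedom between replicates of a group was 6.81 over 20 pairs, so each library counted as 1 replicate. Alternatives were RLE factors, DESeq2 1.42.0, no filter, an adjusted p under 0.05, all 30 libraries, limma 3.58.1 on log2(TPM + 1) and log2(TPM + 0.1), thinned counts, whole estimates only and leaving out each library. Intervals and floors cover counting error only.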

Additional observations from a re-analysis of the deposited data

Results flagged for a closer look

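In treated replicate 5, ENSCPOT00000013715.3 stood at 0.288 CPM, far below the 0.506 to 0.576 CPM of the other 4 treated libraries. It was 1 of 24 sets of 5 libraries examined, of which chance flags 1.2. The same library stood apart on the second principal component, and the part of that in this value was not tested.

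The effect of 40 µM differed between 24 h and 12 h in 5261 transcripts (edgeR interaction test, adjusted p under 0.1). All 4 transcripts given by identifier were among them, but their choice on the 12 h libraries favours a move toward 0 by 24 h. The difference of the log2 fold change, 24 h less 12 h, was -2.19 for ENSCPOT00000044307.1 (edgeR adjusted p = 0.00538), -0.44 for ENSCPOT00000025069.2 (adjusted p = 0.000724), 0.94 for ENSCPOT00000013715.3 (adjusted p = 0.0417) and 0.37 for ENSCPOT00000006905.3 (adjusted p = 0.00166), each toward 0.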

How the results depend on the processing

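Of the alternative values of the main results, 214 kept their direction and side or stayed close to the original, 28 moved and 7 lost their call. On log2(TPM + 1) with limma, 281 transcripts were higher and 309 lower beyond 1.5-fold, and 109 and 42 beyond 2-fold. On log2(TPM + 0.1), 163 were higher beyond 2-fold. These fits, which change test, unit and normalisation together, gave 39.6% and 39.5% of calls higher in place of 48.8%. Called transcripts at least 2-fold higher numbered 638, and 408 with the filter on vehicle 24 h. Whole estimates only gave 4271 calls, 2131 higher and 2140 lower, with 6641 transcripts tested. The share of called-higher transcripts in the lowest quintile of vehicle TPM was 17.1%, 13.0% with no filter, and 15.8% to 17.5% with 1 library left out. The share of called-lower ones in the highest quintile was 32.5%, 41.2% with no filter, 30.2% with filter and quintiles from vehicle 24 h, and 32.0% to 34.3% with 1 library left out. Of called-lower transcripts 50.6% were longer than the median, 52.6% beyond 1.5-fold and 54.9% within quintiles of level. Why these shares moved was not tested.

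Silent-to-detected transcripts numbered 16, 6 with 0 counts required, 40 at 5 counts, 9 at 20 counts and 9 with whole estimates. The reverse numbered 0, 4 at 5 counts, and 0 to 2 with 1 library left out. The difference in count-weighted length ran from -120 to -68.5 bases with 1 library left out and missed an unadjusted p of 0.05 in 7 of 10 cases. The number of transcripts that hold 50% of counts differed by 4.80, and by -1.55 to 11.1 with 1 library left out, negative without vehicle replicate 5 (-1.55) or 40 µM replicate 4 (-0.400). Calls numbered 7856 to 8643 with 1 library left out, of which 7667 to 8029 were shared with the full set. No paired analysis was possible because the labels give the groups no shared replicate numbers. In the lowest quintile of vehicle TPM, with a median of 34 counts per vehicle library, the median SE was 0.35 log2 units. This limited what could be seen there, and the part of depth in it was not tested.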
